A study of Mus musculus with 6 samples.

Results

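The 40 genes described here code for proteins that repair DNA or signal its damage. They were chosen by symbol, with no measured value used in the rule, and sorted into 8 repair routes, and all 40 were found among the 24421 rows of a table of gene counts. The cells were group 2 innate lymphoid cells (ILC2), tissue lymphocytes that lack antigen receptors and secrete type 2 cytokines. They were taken by surface marker from brains of the inbred strain C57BL/6 and kept 2 weeks in medium with 20% fetal calf serum, stem cell factor and the cytokines IL-33, IL-7 and IL-2. Aged mice were 20 to 22 months old and young mice 2 to 3 months, and each age gave 3 RNA-seq libraries read from 1 end over 75 bp. No genotype, sex or number of mice per library is given in the labels, and nothing there ties a library to its own animal or culture. The p-values therefore measure the spread between these libraries, which may be technical.

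DNA is damaged all the time by oxygen radicals, by loss or deamination of bases and by stalled replication forks, and a dividing lymphocyte meets most of its breaks in S phase. Base excision repair and single-strand break repair remove small base lesions and reseal nicks, nucleotide excision repair cuts out bulky lesions, and mismatch repair corrects errors of replication. Breaks through both strands are either rejoined directly by end joining or copied from the sister chromatid by homologous recombination, while the Fanconi anaemia proteins unhook crosslinks at forks. Sensor kinases and chromatin marks at the break hold the cell cycle until repair is done.

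None of the 40 repair genes passed the test between aged and young cultures. Over the whole table, 19.4% of the 11805 tested genes passed at an adjusted p under 0.05 (edgeR quasi-likelihood test with Benjamini-Hochberg adjustment), 11.2% as higher in aged libraries and 8.14% as lower. These were 1325 higher and 961 lower genes, against 718 and 2380 with library totals as the sole scaling and 827 and 1269 with an offset for transcript length and GC content. Every repair gene was expressed enough to be tested, and 2 of the 40, Apex1 and H2afx, had an unadjusted p under 0.05, against 31.5% of all tested genes. The median log2 change, aged over young, was -0.20 for the repair genes and -0.10 for all tested genes, and 24 of the 40 fitted changes were negative. Of the 40, 32 had a mean level under 20 CPM (the count of a gene as a share of its TMM-scaled library). No repair gene passed in limma-voom. Apex1 and H2afx passed as higher in DESeq2 (adjusted p of 0.0251 and 0.0436), and Apex1 also did without aged library 1 (edgeR adjusted p = 0.0271). In these 2 settings 24.2% and 15% of all tested genes passed in either direction. With library totals as the sole scaling Xrcc6 passed as lower (log2 change of -0.86, edgeR adjusted p = 0.0441), where 26.2% of all tested genes passed in either direction.

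**Figure D1:**
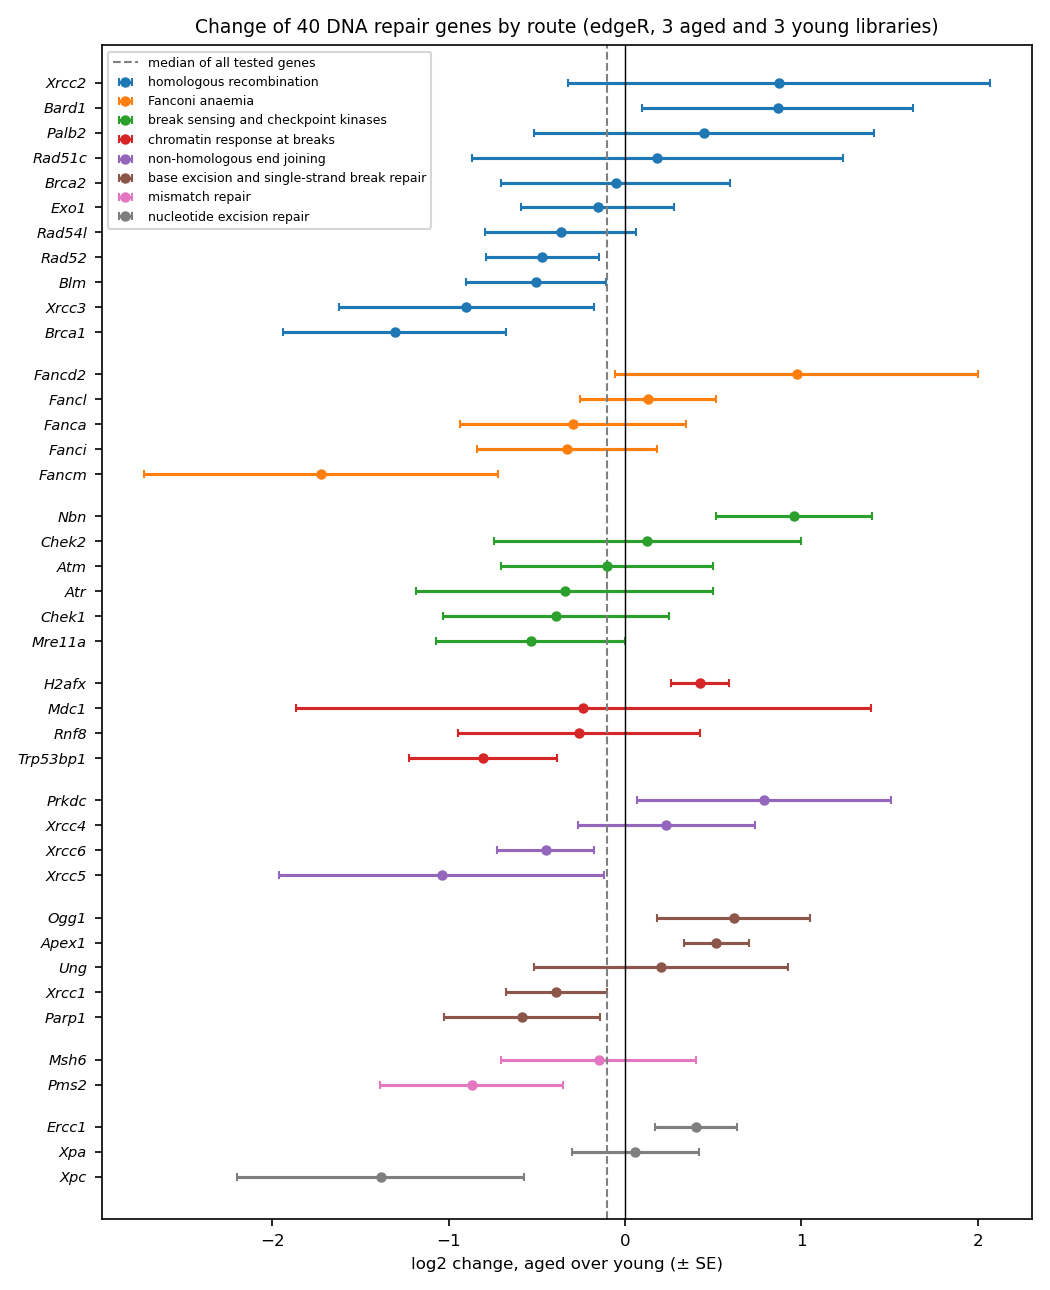
Log2 change of each repair gene, aged over young (horizontal axis), with its SE from edgeR, grouped by repair route, for 3 aged and 3 young libraries. The points run from -1.73 (Fancm) to 0.97 (Fancd2), and the dashed line marks the median of all tested genes, -0.10.

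The libraries held 16477157 to 20804291 counts, of which 11746 to 18985 fell on the 40 repair genes. As a check of the cell type, 12 of 13 ILC2 markers passed the filter, and the 13 summed to 6965 to 9411 CPM in aged and 10203 to 12002 CPM in young libraries; Kit alone was too low to test. Eomes, Tbx21 and Ncr1 (NK cells and ILC1), Cd3e, Cd4 and Cd8a (T cells), Cd79a and Ms4a1 (B cells) and Csf1r (macrophages) had 0 counts in all libraries. Of the 6 genes of the T cell list 3 were at 0. The whole T cell list summed to 6.76 to 14.7 CPM in aged and 6.78 to 13.0 CPM in young libraries. The summed microglial and macrophage markers (7 genes, in aged libraries mostly Tmem119) were at 54.2 to 89.6 CPM in aged and 6.10 to 17.99 CPM in young libraries, and the dendritic cell markers (6 genes, mostly Batf3) at 309.8 to 353.8 CPM in aged and 64.8 to 87.8 CPM in young libraries. The B cell list summed to 33.2 to 58.3 CPM in aged and 13.7 to 22.9 CPM in young libraries, with 4 of its 5 genes at 0 and all of it from Cd79b. The ILC3 list (3 genes, 2 at 0) summed to 4.38 to 13.7 CPM in aged and 0 to 3.34 CPM in young libraries, and the endothelium and fibroblast list (4 genes, 2 at 0) to 125.7 to 163.2 CPM in aged and 66.6 to 101.9 CPM in young libraries. The macrophage, dendritic cell, B cell, ILC3 and endothelium and fibroblast lists were higher in all aged than in all young libraries, and the ILC2 list was lower in all aged than in all young libraries. The mast cell and basophil list summed to 188.3 to 325.1 CPM in aged and 230.3 to 281.4 CPM in young libraries. For the neuron and glia list the sums were 17.4 to 18.4 and 17.7 to 36.6 CPM. These last ranges and those of the T cell list overlapped between the ages. The part of all these lists in the values below was not tested. In bulk RNA, fewer cells of a type cannot be told apart from less RNA per cell. Summed over 25 cell cycle genes the level was 1901 to 2345 CPM in aged and 1942 to 2136 CPM in young libraries, so the ranges overlapped. Of these 25 genes 1 passed as higher (Cdk1, log2 change of 1.09) and 3 as lower (Rrm1, Mcm6 and Mcm3). Mki67 averaged 30.02 ± 6.74 CPM in aged and 40.2 ± 10.4 CPM in young libraries, Pcna 194 ± 35.5 and 139.8 ± 12.6, Top2a 139.4 ± 16.5 and 118.5 ± 8.47, and Rrm2 161 ± 24.2 and 189 ± 53.9 (SD, n = 3 each).

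Levels can be compared between genes only per transcript length, and on that scale the repair genes spanned a wide range. The length used was that of the longest annotated transcript, and which transcript the cells express was not tested, so the order is approximate. The count of Apex1 is also uncertain, as 61.7% of its exon length is overlapped from the opposite strand. Apex1 stood highest at 181.0 ± 38.9 CPM per kilobase in aged and 126.4 ± 11.8 in young libraries (SD, n = 3 each), followed by H2afx at 111.0 ± 11.4 and 82.6 ± 6.64. Ercc1 came next at 32.05 ± 0.99 and 24.2 ± 1.51 CPM per kilobase. Rad52, Xpa, Xrcc6 and Xrcc1 followed at means over both groups of 16.5, 15.2, 13.1 and 12.7, and neighbouring pairs among these 4 differed by less than the larger SD in both groups, except Xpa and Xrcc6 in aged libraries (15.5 ± 4.34 and 11.1 ± 2.90). At the low end Atr, Brca2, Fancd2 and Mdc1 had means of 0.61, 0.54, 0.44 and 0.43 CPM per kilobase. Of these, Brca2 and Fancd2 differed by more than their SDs in young libraries (0.55 ± 0.086 and 0.30 ± 0.15) and by less in aged ones (0.53 ± 0.20 and 0.58 ± 0.31).

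**Figure D2:**
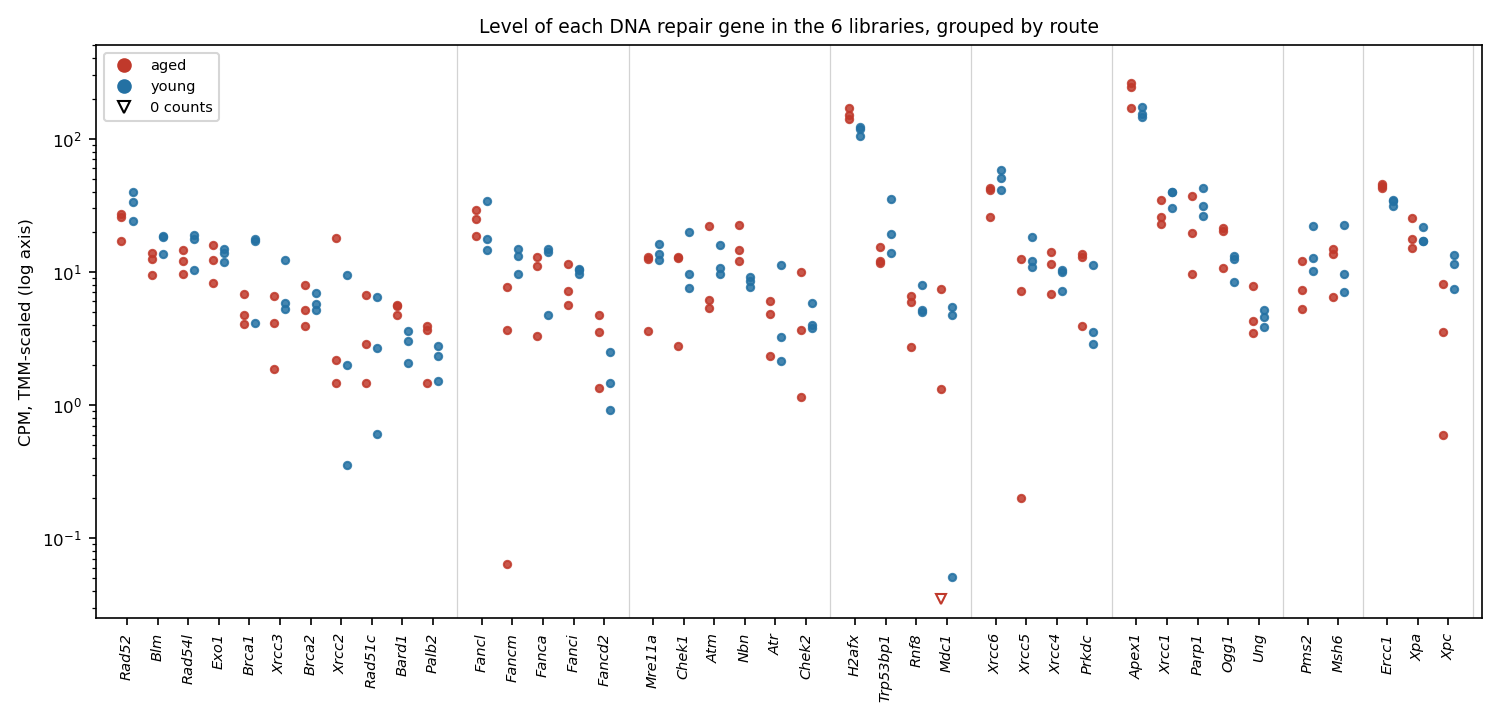
Level of each repair gene in every library (vertical log axis, CPM scaled by TMM), grouped by route, with aged libraries in red and young libraries in blue; an open triangle marks 0 counts. H2afx and Apex1 lie above 100 CPM in all libraries, and the libraries of a group lie far apart for genes such as Xrcc2, Fancm, Mdc1 and Xrcc5.

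The stretches before the start sites of 3 of these genes are shown because Apex1 had the smallest p of the 40, Fancm the most negative fitted change and Brca1 the smallest p among the recombination genes. Each is 250 bases upstream of the RefSeq start site (GRCm38.p6), written in the direction of the gene, with CCAAT in capitals, the core of the box that the factor NF-Y binds.
Apex1, chr14:50924699-50924948, plus strand: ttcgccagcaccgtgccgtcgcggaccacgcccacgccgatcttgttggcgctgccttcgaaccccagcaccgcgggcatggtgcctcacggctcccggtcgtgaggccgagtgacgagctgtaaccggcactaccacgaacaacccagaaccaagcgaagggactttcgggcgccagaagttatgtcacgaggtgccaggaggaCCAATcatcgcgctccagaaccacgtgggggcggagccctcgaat
Fancm, chr12:65075353-65075602, plus strand: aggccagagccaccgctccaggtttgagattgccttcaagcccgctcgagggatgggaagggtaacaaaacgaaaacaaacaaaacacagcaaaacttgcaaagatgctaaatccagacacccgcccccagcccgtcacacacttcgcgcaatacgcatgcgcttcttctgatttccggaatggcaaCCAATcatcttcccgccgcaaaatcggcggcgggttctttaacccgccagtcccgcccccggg
Brca1, chr11:101551956-101552205, minus strand: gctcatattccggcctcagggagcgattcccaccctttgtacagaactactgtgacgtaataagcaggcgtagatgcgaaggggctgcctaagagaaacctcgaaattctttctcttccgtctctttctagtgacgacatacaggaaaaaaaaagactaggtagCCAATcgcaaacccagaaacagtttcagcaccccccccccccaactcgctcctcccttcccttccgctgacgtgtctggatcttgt
In these windows the box begins 45 bases before the start site in Apex1, 63 in Fancm and 86 in Brca1, each on the strand of the gene. RefSeq windows were matched for 33 of the 40 repair genes; Xrcc2, H2afx, Nbn, Prkdc, Fancd2, Xpc and Exo1 were not matched. CCAAT was present, on either strand, in 18 of the 33 (54.5%), and in 40.5% of the 9013 tested genes with a window. The median log2 change was -0.33 over the 18 with the box and -0.05 over the 15 without it, against -0.09 and -0.13 over all tested genes with and without it. Of the E2F motif only the forms TTTCGCGC and TTTGGCGC were searched, and they were in none of the 33 windows and in 1.5% of tested genes. Other forms of that motif, such as TTTCCCGC, were not counted, so a lack of E2F sites in these windows is not shown. The cell cycle element TTTGAA was in 2 (6.1%, Bard1 and Rnf8) and in 12.7% of tested genes, both strands searched. The 2 E2F forms searched contain neither CCAAT nor TTTGAA on either strand, and a match or its absence here describes letters in these windows only.

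Homologous recombination was covered by 11 genes, none of which passed, with a median log2 change of -0.16 and 7 negative values. Brca1, which helps choose recombination over end joining, had 4.77, 4.04 and 6.86 CPM in aged libraries 1 to 3 and 17, 17.7 and 4.12 CPM in young libraries 1 to 3. Young libraries 1 and 2 were high and young library 3 was at the aged level, so the groups overlapped. The log2 change was -1.31 ± 0.63 (SE; edgeR adjusted p = 0.186), with a 95% interval of -2.70 to 0.09, and without young library 3 the edgeR adjusted p was 0.0579. Bard1, the partner of Brca1 in its ubiquitin ligase, had 5.498, 5.59 and 4.76 CPM in aged and 3.60, 3.01 and 2.08 CPM in young libraries. The Bard1 groups did not overlap, but at these levels the change of 0.86 ± 0.77 was far from the 2.41 that would have passed. Over all tested genes 19.3% had groups that did not overlap with aged higher and 18.8% with aged lower, 38.2% in all, against 4 and 1 of the 40 repair genes.

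Palb2, which bridges Brca1 and Brca2, had 3.64, 3.91 and 1.46 CPM in aged and 2.76, 1.51 and 2.34 CPM in young libraries. Brca2, which loads the recombinase on single-stranded DNA, had 3.91, 5.19 and 8.001 CPM in aged and 5.13 to 6.94 CPM in young libraries, with a log2 change of -0.05 ± 0.65 (SE). Both overlapped between the ages, and the change of Palb2 was 0.45 ± 0.97. The recombinase paralogs Rad51c, Xrcc2 and Xrcc3, which help the strand-exchange filament form, varied widely between libraries of a group. Xrcc2 had 1.46, 18.05 and 2.16 CPM in aged and 9.49, 1.99 and 0.356 CPM in young libraries. Its fitted change of 0.87 ± 1.20 rested on aged library 2 and was -1.12 without it. Rad51c had 1.46, 2.90 and 6.73 CPM in aged and 2.66, 0.611 and 6.51 CPM in young libraries, and Xrcc3 had 1.85, 4.11 and 6.60 CPM in aged and 12.4, 5.29 and 5.85 CPM in young libraries. Their groups overlapped, with log2 changes of 0.18 ± 1.05 and -0.90 ± 0.72.

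Rad52, a strand-annealing protein, was the most abundant recombination gene at 16.9, 27.3 and 26.0 CPM in aged and 33.5, 24.3 and 39.4 CPM in young libraries. Aged libraries 2 and 3 lay above young library 2, so the Rad52 groups overlapped, and the log2 change was -0.47 ± 0.32 with an interval of -1.17 to 0.24. The helicase Blm, which dissolves joined molecules, had 12.4, 9.49 and 13.8 CPM in aged and 13.7, 18.4 and 18.7 CPM in young libraries. The translocase Rad54l had 14.5, 12.1 and 9.65 CPM in aged and 10.3, 17.6 and 18.8 CPM in young libraries, with an exon overlap of 15.4% with an opposite-strand gene. Exo1, a nuclease that trims break ends and also serves mismatch repair, had 8.28 to 15.9 CPM in aged and 11.9 to 14.8 CPM in young libraries. The log2 changes of Blm, Rad54l and Exo1 were -0.51 ± 0.40, -0.37 ± 0.43 and -0.16 ± 0.43, and their groups overlapped. For these and Rad52 the intervals lay above a 4-fold fall and below a 2-fold rise.

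The Fanconi anaemia genes did not pass either, at a median log2 change of -0.29 over 5 genes. Fancl, the ubiquitin ligase of the core complex, had 18.5, 24.8 and 29.0 CPM in aged and 17.6, 14.6 and 33.9 CPM in young libraries. The aged range lay inside the young one, and the log2 change of 0.13 ± 0.39 had an interval of -0.72 to 0.98. Fancm, the translocase that anchors the core complex to DNA, had 3.64, 7.68 and 0.0635 CPM in aged libraries, the last from 1 count, and 13.1, 9.57 and 14.9 CPM in young libraries. Fancm was the only repair gene with all aged libraries below all young ones, and its change of -1.73 ± 1.004 (edgeR adjusted p = 0.277) had an interval of -3.93 to 0.48. Fanca, a core complex member, had 3.31, 11.1 and 13.0 CPM in aged and 14.0, 14.9 and 4.78 CPM in young libraries. Fanci and Fancd2 form the clamp that the core complex marks with ubiquitin. Fanci had 5.63, 11.4 and 7.18 CPM in aged and a narrow 9.56 to 10.5 CPM in young libraries, and Fancd2 had 4.70, 1.35 and 3.56 CPM in aged and 2.503, 1.47 and 0.915 CPM in young libraries. The groups overlapped for Fanca, Fanci and Fancd2, with log2 changes of -0.29 ± 0.64, -0.33 ± 0.51 and 0.97 ± 1.03.

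Break sensors and checkpoint kinases had a median log2 change of -0.22 over 6 genes, and none passed. Nbn (chromosome 4, 15957925 to 15992589, GRCm38), the targeting subunit of the nuclease complex that first binds breaks, had 22.7, 14.5 and 12.1 CPM in aged and 9.13, 8.55 and 7.68 CPM in young libraries. All aged libraries were above all young ones, and the 3 young libraries lay close together. The log2 change of Nbn was 0.96 ± 0.44 (SE; edgeR adjusted p = 0.164), with an interval of -0.01 to 1.93, and a change of 1.38 would have passed. Mre11a, the nuclease subunit of the same complex, had 3.58, 12.9 and 12.5 CPM in aged and 12.2, 16.2 and 13.7 CPM in young libraries, and its change was -0.54 ± 0.54. Only aged library 1 was low for Mre11a, and that library was the highest of the 6 for Nbn.

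Atm, the kinase that answers breaks, had 22.2, 6.13 and 5.33 CPM in aged and 15.9, 10.7 and 9.56 CPM in young libraries. Aged library 1 gave the highest value of the 6 and aged libraries 2 and 3 the lowest, and the log2 change of -0.10 ± 0.60 ran from -1.07 to 0.23 as each library was left out. Atr, the kinase of stalled forks, had 2.32, 5.99 and 4.83 CPM in aged and 2.14, 3.26 and 11.3 CPM in young libraries. Chek1, the checkpoint kinase that Atr activates, had 12.8, 2.76 and 12.8 CPM in aged and 20.0, 7.57 and 9.66 CPM in young libraries. Chek2, its counterpart under Atm, had 10, 3.64 and 1.14 CPM in aged and 3.75, 3.99 and 5.79 CPM in young libraries. Aged library 1 was thus also the highest of the 6 for Chek2, and the groups overlapped for all 4 kinases. The log2 changes of Atr, Chek1 and Chek2 were -0.34 ± 0.84, -0.39 ± 0.64 and 0.13 ± 0.87.

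Proteins that act on chromatin around a break included H2afx, the histone variant H2AX that the sensor kinases phosphorylate. H2afx (chromosome 9, 44334694 to 44336077) had 149.3, 140.5 and 171.1 CPM in aged and 117.6, 121.4 and 103.9 CPM in young libraries. The groups did not overlap, and the log2 change was 0.43 ± 0.16 (SE; edgeR adjusted p = 0.0976), with an interval of 0.06 to 0.79. Its transcript is 1384 bases long with a GC content of 62.3%, and with an offset for length and GC content the change was -0.42 (edgeR adjusted p = 0.164). The coding sequence of H2afx resembles those of other H2A genes. Reads shared among them could leave its count uncertain, which was not tested. A microRNA gene on the opposite strand covers 10.2% of its exon.

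Trp53bp1, which shields break ends and favours end joining, had 12.1, 11.6 and 15.4 CPM in aged and 13.9, 35.2 and 19.3 CPM in young libraries. Young library 2 stood above the rest, aged library 3 lay above young library 1, and the log2 change was -0.80 ± 0.42 (edgeR adjusted p = 0.22). Mdc1, the scaffold that reads phosphorylated H2AX, had 1.32, 0 and 7.37 CPM in aged and 4.75, 5.45 and 0.0508 CPM in young libraries. The values of 0 and 0.0508 came from 0 and 1 count, beside 134 counts in young library 2, and the SE of its log2 change was 1.63, the widest of the 40. Rnf8, the ubiquitin ligase recruited by Mdc1, had 5.90, 6.53 and 2.73 CPM in aged and 5.16, 5.01 and 7.98 CPM in young libraries. Mdc1 and Rnf8 overlapped between the ages, with log2 changes of -0.24 ± 1.63 and -0.26 ± 0.69. The 4 genes of this group had a median log2 change of -0.25.

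Non-homologous end joining was represented by 4 genes with a median log2 change of -0.11. Xrcc6, which codes for the Ku70 subunit of the ring that caps broken ends, was the most abundant at 41.4, 25.6 and 42.8 CPM in aged and 57.7, 41.4 and 51.0 CPM in young libraries. Aged libraries 1 and 3 lay within or at the edge of the young range, and the log2 change was -0.45 ± 0.27 (edgeR adjusted p = 0.3) with an interval of -1.05 to 0.15. Xrcc5, which codes for the Ku80 partner, had 12.6, 0.202 and 7.18 CPM in aged and 12.05, 18.2 and 10.8 CPM in young libraries, with 3 counts in aged library 2. Prkdc, the kinase that Ku recruits, had 13.6, 3.91 and 12.9 CPM in aged and 2.87, 3.54 and 11.2 CPM in young libraries. Xrcc4, the cofactor of the ligase that seals the ends, had 11.4, 14.1 and 6.79 CPM in aged and 9.91, 7.16 and 10.4 CPM in young libraries. The groups overlapped for all 4, and the log2 changes of Xrcc5, Prkdc and Xrcc4 were -1.04 ± 0.92, 0.79 ± 0.72 and 0.23 ± 0.50.

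Base excision and single-strand break repair held the gene with the highest level per kilobase, and 3 of its 5 fitted changes were positive (median 0.20). Apex1 (chromosome 14, 50924968 to 50927139), the endonuclease that cuts at sites that have lost a base, had 169.5, 242.8 and 260.5 CPM in aged and 151.9, 145.0 and 173.0 CPM in young libraries. Aged library 1 lay below young library 3, so the groups overlapped. The log2 change was 0.52 ± 0.18 (SE; edgeR adjusted p = 0.0739), the smallest of the 40, with an interval of 0.11 to 0.92. With an offset for length and GC content it was -0.13, and it was 0.10 with library totals as the sole scaling. Exons of Pip4p1 on the opposite strand cover 61.7% of the exon length of Apex1, and the strand setting of the counting is not known, so the count of Apex1 is uncertain.

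Ung and Ogg1 code for glycosylases that remove uracil and oxidised guanine. Ung had 7.88, 4.31 and 3.49 CPM in aged and 3.86, 5.17 and 4.57 CPM in young libraries, and Ogg1 had 20.3, 21.1 and 10.7 CPM in aged and 12.5, 13.1 and 8.44 CPM in young libraries. Aged library 3 lay inside the young range for Ogg1, whose log2 change was 0.62 ± 0.43, and the Ung groups overlapped at 0.20 ± 0.72. Parp1, the polymerase that marks nicks with ADP-ribose, had 37.1, 19.6 and 9.65 CPM in aged and 31.2, 42.2 and 26.2 CPM in young libraries, and its change was -0.59 ± 0.44. Xrcc1, the scaffold that Parp1 draws in, had 34.8, 25.9 and 22.8 CPM in aged and 39.7, 39.4 and 30.2 CPM in young libraries, and its change was -0.39 ± 0.28. For Parp1 and Xrcc1 aged library 1 lay within the young range and aged libraries 2 and 3 below it.

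Mismatch repair was represented by Msh6, a mismatch sensor, and Pms2, a nuclease that follows it. Msh6 had 6.49, 13.7 and 14.9 CPM in aged and 22.3, 7.08 and 9.56 CPM in young libraries. Pms2 had 5.23, 7.34 and 12.1 CPM in aged and 22.2, 12.8 and 10.1 CPM in young libraries. Young library 1 was the highest of the 6 for both genes, and the log2 changes were -0.15 ± 0.55 and -0.87 ± 0.52.

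Nucleotide excision repair included Ercc1, a subunit of the nuclease that cuts beside the lesion. Ercc1 had 45.6, 43.7 and 42.9 CPM in aged and 34.1, 34.9 and 31.0 CPM in young libraries, so the groups did not overlap. Its log2 change was 0.40 ± 0.23 (edgeR adjusted p = 0.272) with an interval of -0.11 to 0.92, and it was -0.36 with the length and GC offset and -0.015 with library totals. Xpa, which verifies the damage, had 14.97, 25.3 and 17.5 CPM in aged and 21.5, 16.9 and 17.1 CPM in young libraries, and its change of 0.06 ± 0.36 lay within -0.73 to 0.85. Xpc, which finds the lesion first, had 0.596, 8.15 and 3.56 CPM in aged and 13.4, 7.41 and 11.4 CPM in young libraries. Aged libraries 1 and 3 were low for Xpc and aged library 2 lay in the young range, with a change of -1.39 ± 0.82 (edgeR adjusted p = 0.282).

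How much a missed threshold says differs between these genes. The 95% interval of the log2 change excluded a 2-fold change in either direction for 5 genes, Fancl, H2afx, Apex1, Ercc1 and Xpa, and a 4-fold change in either direction for 25. For the remaining 15, among them Brca1, Rad51c, Xrcc2, Fancm, Atr, Mdc1 and Xpc, a 4-fold change in at least 1 direction lay inside the interval. With the SE of each gene, the log2 change that would have reached the p of the last called gene (0.00968) ran from 0.51 for H2afx to 5.10 for Mdc1, with a median of 1.80. Among all tested genes with a mean of 10 to 20 CPM, where 14 repair genes lay, 11.2% passed, and the median SE was 0.476 for all and 0.479 for the repair genes. Below 5 CPM 6.74% passed and from 5 to 10 CPM 7.05% (8 and 10 repair genes), from 20 to 50 CPM 19.4% (6 repair genes) and from 100 CPM up 48.8% (Apex1 and H2afx).

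**Figure D3:**
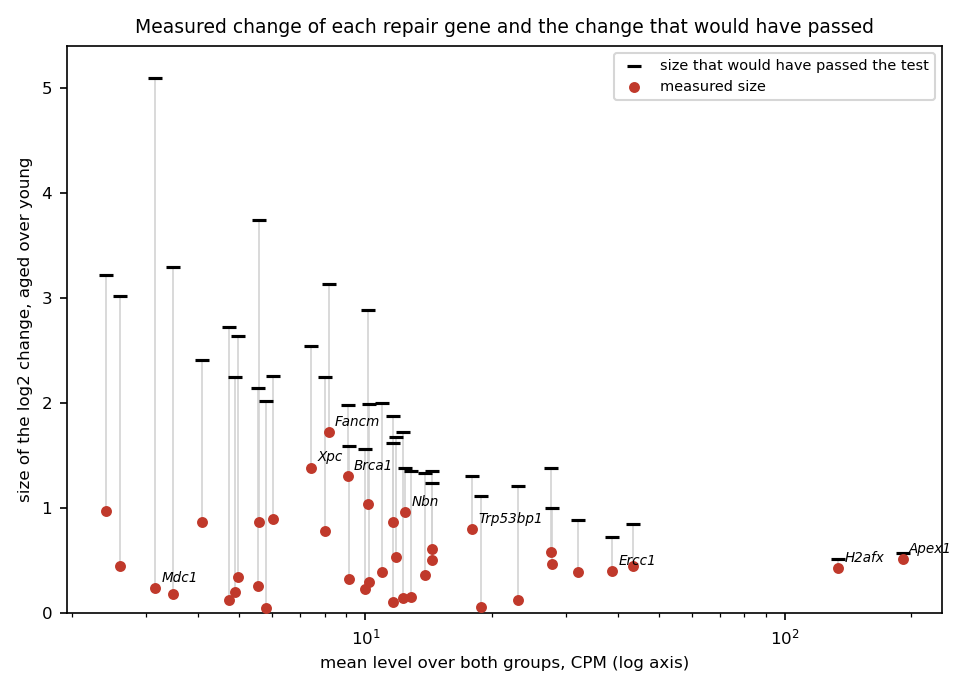
Size of the log2 change of each repair gene (red points) and the size that would have passed the test with the gene's own SE (black bars) against its mean level in CPM (log axis). The bar lies at 0.51 for H2afx, close to its point, and at 5.10 for Mdc1, far above its point.

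Libraries of 1 group differed from each other by more than counting noise at the median of these genes. The chi-square over its degrees of freedom, which is near 1 for counting noise alone, had a median of 22.8 in aged and 19.2 in young libraries. The highest library exceeded the lowest by a median of 2.26-fold in aged and 1.65-fold in young libraries. At least 5-fold, or a library with 0 counts, was reached by 6 genes in aged (Xrcc2, Fancm, Chek2, Mdc1, Xrcc5 and Xpc) and by 4 in young libraries (Rad51c, Xrcc2, Atr and Mdc1). Under 1.5-fold was held by 5 genes in aged and 14 in young libraries, with Blm, H2afx and Ercc1 in both. The aged libraries of Ercc1 differed by 1.06-fold, with their chi-square over its degrees of freedom at 0.642.

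Transcript length went along with the change across the whole table. Ranked by the longest transcript into 5 equal classes, the tested genes had median log2 changes of 0.51, 0.042, -0.20, -0.36 and -0.50 from short to long. The repair genes followed in the shortest class with a median of 0.42 (Xrcc4, Apex1, Xpa, Ogg1, Ercc1 and H2afx) and had -0.17, -0.37, -0.33 and -0.25 in the others, where 4, 7, 9 and 14 of them lay. In the longest class 2.35% of all genes passed as higher and 12.2% as lower. The Spearman correlation of length with the change was -0.24 over the 40 repair genes and -0.37 over 11705 tested genes, which are not independent replicates. With the length and GC offset the median change was -0.10 for the repair genes and -0.19 for all tested genes, and no repair gene passed.

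**Figure D4:**
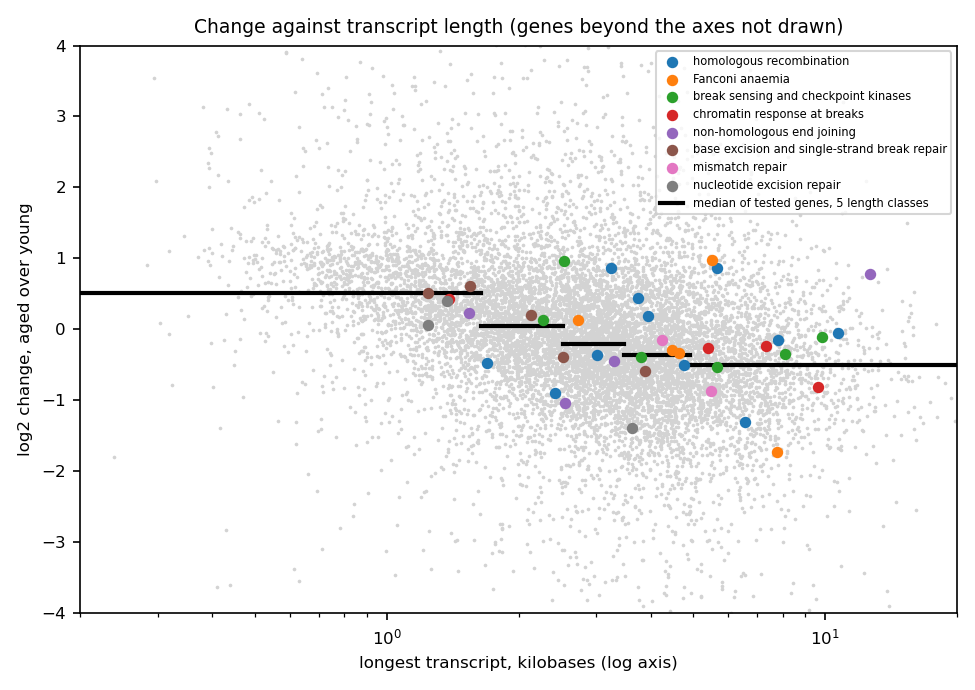
Log2 change, aged over young, against the longest transcript of each gene in kilobases (log axis), with all tested genes in grey, repair genes coloured by route and black lines at the medians of 5 length classes. The class medians run from 0.51 for short to -0.50 for long transcripts. The short repair genes H2afx, Apex1, Ogg1 and Ercc1 sit near the upper line, and Xrcc4 (0.23) and Xpa (0.06) of the same class lie below it.

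The other genes of these pathways were taken from a list of 128, of which 126 were tested, 9 passed as higher and 8 as lower (7.14% and 6.35%), with a median log2 change of -0.18. Over all tested genes the shares were larger, 11.2% as higher and 8.14% as lower. The counts by route given here and in the next paragraph rest on 7 to 25 genes each. Among recombination genes (2 higher and 1 lower of 25), Swi5, a recombination mediator, had 835.9, 856.5 and 794.7 CPM in aged and 409.0, 350.6 and 441.5 CPM in young libraries and rose by 1.05 on the log2 scale. Rpa3, the small subunit of the protein that coats single-stranded DNA, rose by 0.96. Rad50, the third subunit of the complex of Nbn and Mre11a, fell by 0.78, with 88.5, 62.4 and 46.9 CPM in aged and 115.8, 117.0 and 106.7 CPM in young libraries. The 3 subunits of this complex thus had log2 changes of 0.96, -0.54 and -0.78, of which Rad50 alone passed. In the Fanconi route (1 and 1 of 12) Fancf rose by 1.24 and Fancb fell by 4.14, with 0.199, 0.269 and 0.191 CPM in aged and 4.95, 1.79 and 5.18 CPM in young libraries. None of 14 further checkpoint genes, 7 end joining genes or 9 mismatch repair genes passed. Mad2l2, which acts with Trp53bp1 at break ends, rose by 0.69, as the 1 gene of 11 that passed in its group.

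Later steps of base excision repair included both genes of this route that fell. Lig1, the ligase of replication and long-patch repair, had 34.1, 37.4 and 39.5 CPM in aged and 107.4, 83.9 and 88.0 CPM in young libraries and fell by 1.33 ± 0.21 (SE; edgeR adjusted p = 0.00112). Polb, the polymerase that fills the gap, fell by 0.74, while Mpg, a glycosylase for alkylated bases, rose by 0.90 with 35.7% of its exons overlapped from the opposite strand (1 higher and 2 lower of 17). Among 20 nucleotide excision genes 1 rose and 3 fell. Gtf2h1 and Gtf2h5 code for subunits of the same factor, TFIIH, which opens DNA around the lesion. Gtf2h1 fell by 1.68 and Gtf2h5 rose by 0.64, and Xab2, a partner of Xpa, fell by 1.36. Of 11 genes of translesion synthesis and direct reversal 3 rose and 1 fell. Ube2a and Ube2b, the ubiquitin-conjugating enzymes that work with Rad18 at stalled forks, rose by 0.88 and 0.80, and Polk, a translesion polymerase, fell by 2.31.

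With the length and GC offset 2 of these further repair genes were called higher and 9 lower, not all of them the genes above. Of the 9 that rose only Poli was still called, and of the 8 that fell Lig1, Polb, Gtf2h1, Xab2, Fancb and Ddb1 were, while Rad50 and Polk were not. Swi5, Rpa3, Fancf, Mad2l2, Mpg, Gtf2h5, Ube2a and Ube2b were not called under that offset, where Rpa3 also changed sign (log2 change of -0.18). Lig1 and Gtf2h1 were called lower, and Swi5, Rpa3, Ube2a, Ube2b and Poli higher, whichever library was left out. Poli came closest to losing its call without aged library 2 (edgeR adjusted p = 0.0499). Counts of calls with a library left out ran from 5 to 8 higher and from 2 to 8 lower. There were 5 higher calls without aged library 2 and 2 lower calls without young library 2, and 4 lower calls without aged library 2, young library 1 or young library 3. Mpg and Fancb lost the call whichever library was left out, Polb and Polk kept it only without aged library 3, and Rad50 only without aged library 1. Poli, a translesion polymerase, and Ddb1, a sensor of bulky lesions, also passed (log2 changes of 2.18 and -0.99) and are shown with the others in the plot of further repair genes.

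**Figure D5:**
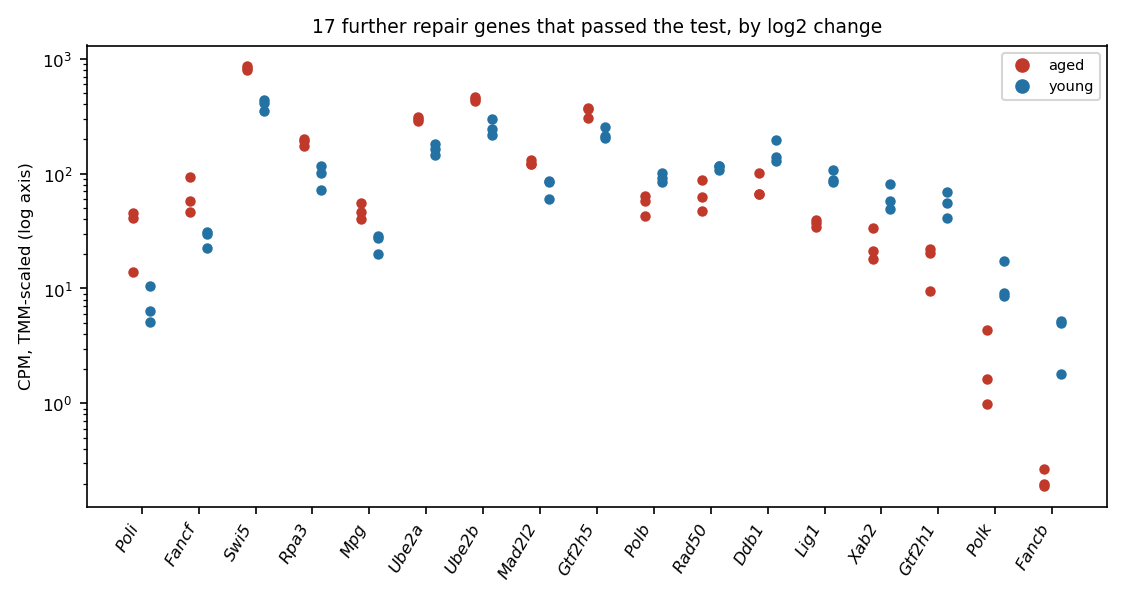
Level in each library (vertical log axis, CPM scaled by TMM) of the 17 further repair genes that passed the test, with aged libraries in red and young libraries in blue, ordered by log2 change. The 3 aged libraries lie wholly above or wholly below the 3 young ones for each gene.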

How the data were processed

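The authors deposited 1 table of unnormalized counts with a row per gene symbol. The submitters' processing notes name DESeq2 1.1, STAR 2.5.3a, Cufflinks 2.0, FastQC 1.0.0, bcl2fastq 2.20.0.422 and the build mm10, without roles. How reads were counted, on which annotation and with which strand setting, is not given in the sources used here. Columns were matched to samples by their description label and grouped by the age in the titles. From the deposited counts, genes passing filterByExpr (minimum count 10, minimum total 15; 11805 genes, 48.3%) were scaled by TMM (factors of 0.866 ± 0.023 in aged and 1.16 ± 0.030 in young libraries, SD, n = 3 each) and the ages were compared, aged over young, with glmQLFit and then glmQLFTest (edgeR 4.0.16, R 4.3.3; threshold 0.05 after Benjamini-Hochberg adjustment over all tested genes). The SE is the log2 change divided by the root of F, and intervals use 11.0 degrees of freedom; the common biological coefficient of variation was 53.0%. Library totals were 16477157 to 20804291 counts, and 27 rows whose symbols had become dates stayed in the totals. Lengths, GC content and exon overlaps come from GENCODE vM21 (GRCm38), which gave a length to 98.4% of symbols. The alternatives were DESeq2 1.42.0, limma-voom (limma 3.58.1), RLE, upper-quartile and library-total scaling, a robust fit, other filters (none, or 1 CPM in 3 libraries), an offset for length and GC (splines with 5 degrees of freedom), a replicate block and leaving out each library. The test was tried on simulated counts.

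Members, lists and tests were chosen with earlier results of these data known. All 40 members are named, with values per library. Of the other repair genes that passed, up to 2 per route and direction with the smallest p were described. Poli and Ddb1, which also passed, were named in addition. At least 10% of exon length is shared with another annotated gene for Rad54l, Fanca, Fanci, Fancl, H2afx, Rnf8, Trp53bp1, Ogg1 and Apex1 and, among other repair genes named, Fancf, Mpg and Xab2, which leaves their counts uncertain.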

Additional observations from a re-analysis of the deposited data

How the results depend on the processing

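The 40 members gave 0 calls in either direction under RLE and upper-quartile scaling, limma-voom, the robust fit, both filters, the replicate block and the length and GC offset with or without the block. In these settings 14.7% to 20.6% of all tested genes passed in either direction. DESeq2 called 2 members higher, where 24.2% of all tested genes passed, and library totals called 1 lower, where 26.2% passed. Leaving out a library gave 0 to 1 higher and 0 to 0 lower members, where 10.8% to 17.5% of all tested genes passed. Library totals moved the median of all tested genes from -0.10 to -0.52 and their calls to 718 higher and 2380 lower (1325 and 961 with TMM), and the other repair genes to 3 higher and 18 lower. The length and GC offset gave 827 higher calls over all genes and 2 among other repair genes; with the replicate block these were 714 and 1, and 4 other repair genes were lower. Without 1 library, calls over all genes ran from 915 to 1344 higher and from 399 to 849 lower, and among other repair genes from 5 to 8 and from 2 to 8.

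The sign of an uncalled change was often not stable, and in these cases neither value passed. With the length and GC offset it turned for Brca2 (0.38), Exo1 (0.43), Fanca (0.0030), Fanci (0.12), Atm (0.33), Atr (0.11), Mdc1 (0.37), Rnf8 (0.24), Msh6 (0.24), H2afx (-0.42), Xrcc4 (-0.41), Ung (-0.18), Apex1 (-0.13), Ercc1 (-0.36) and Xpa (-0.55). With the offset and the replicate block it turned for Brca2 (0.34), Exo1 (0.40), Fanci (0.046), Atm (0.049), Atr (0.30), Rnf8 (0.21), Msh6 (0.38), Chek2 (-0.40), H2afx (-0.46), Xrcc4 (-0.47), Ung (-0.24), Ogg1 (-0.016), Apex1 (-0.15), Ercc1 (-0.36) and Xpa (-0.55). With library totals it turned for Rad51c (-0.20), Fancl (-0.27), Chek2 (-0.29), Xrcc4 (-0.19), Ung (-0.21), Ercc1 (-0.015) and Xpa (-0.37), and for Chek2 also in limma-voom (-0.36) and under the replicate block (-0.31). Leaving out a library gave ranges across 0 for Brca2 (-0.38 to 0.16), Rad51c (-0.58 to 1.20), Xrcc2 (-1.12 to 2.63), Exo1 (-0.40 to 0.057), Fanca (-0.64 to 0.10), Fancl (-0.088 to 0.61), Atm (-1.07 to 0.23), Atr (-0.72 to 0.73), Chek1 (-0.67 to 0.15), Chek2 (-0.92 to 0.60), Mdc1 (-2.36 to 0.34), Rnf8 (-0.49 to 0.039), Xrcc4 (-0.0085 to 0.48), Ung (-0.22 to 0.43), Msh6 (-0.43 to 0.50) and Xpa (-0.19 to 0.21). The cause was not tested.

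Replicate numbers are shared by the titles of both groups. Deviations of same-numbered libraries correlated at 0.020, 0.0088 and 0.041, and those of the other combinations at -0.027 to 0.012. Each aged library correlated best with the young library of its own number, while young library 2 correlated best with aged library 1. All these values were small and the labels state no pairing, so the numbers were not taken as pairs. The replicate block called 1208 genes higher and 800 lower, and 8 and 6 other repair genes. With the depth and spread of these libraries, a 2-fold change would have passed for 5 of the 40 members.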
